A study of Homo sapiens with 6 samples.

Results

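The 10 genes described here encode feedback inhibitors of MAP kinase signalling: the dual-specificity phosphatases DUSP1, DUSP4, DUSP5, DUSP6 and DUSP10, the Sprouty proteins SPRY1, SPRY2 and SPRY4, and the Sprouty-related proteins SPRED1 and SPRED2. They were chosen as a list by family and role, without a threshold on measured values. This list and the related gene lists below were, however, chosen with earlier results of these data known. Each of the 10 symbols matched 1 of the 25071 Ensembl genes in the count table. RNA was sequenced from PLC/PRF/5, a human hepatoma cell line with integrated hepatitis B virus DNA. The 3 control libraries came from cells given an empty vector and the 3 ARD1 libraries from cells given a plasmid that overexpresses ARD1. The ARD1 gene has the symbol NAA10 and encodes the acetyltransferase subunit of NatA, which acts on protein N termini. All 6 were collected 48 hours after transfection, and no other agent is named for either group. Only 1 cell line was used, and whether replicates were separate cultures is not stated, so every p-value reflects only how far these libraries vary, possibly for technical reasons. In the study's title ARD1 is linked to glutathione synthesis and escape from ferroptosis. The comparison made here is whether transcripts of these feedback genes differed between the groups.

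Receptor tyrosine kinases activate RAS, which drives the kinase cascade RAF, MEK and ERK. Active ERK induces transcription of several of its own inhibitors, and for that reason DUSP6, SPRY2, SPRY4 and their relatives are widely read as transcript markers of ERK output. The inhibitors act at different levels: Sprouty proteins near the receptor and RAS, SPRED proteins at RAS through neurofibromin, and the phosphatases on the MAP kinases themselves. In liver and hepatoma, low Sprouty and SPRED expression has been linked to stronger growth factor signalling.

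NAA10 itself was 10.1-fold higher in the ARD1 libraries, at 32.2 to 36.2 CPM (counts scaled to a common library size) in the controls and 294 to 400.2 CPM with the plasmid (log2 fold change 3.34, adjusted p = 3.53e-12, edgeR). A library held 21857327 to 25011357 counts. Control replicate 1 correlated with the other controls at 0.989 in log2 CPM across genes, against 0.992 between the other pair. The hepatocyte genes ALB and TF were measured at 315 and 161 CPM in the controls, while APOA1 and TTR were under 0.3 CPM there and TTR had 0 counts in the ARD1 libraries. The summed level of 8 hepatocyte markers was 701 to 737 CPM in controls and 173 to 195 CPM with ARD1 (2 markers higher, 4 lower), and the higher call of APOB (log2 fold change 0.33) was lost when any 1 library was left out. For 4 cholangiocyte markers the sum was 494 to 631 and 136 to 144 CPM (0 higher, 3 lower, or 2 lower with library totals or without ARD1 replicate 1). The sum of 6 fibroblast and stellate markers was 78.0 to 98.6 and 17.6 to 20.2 CPM (1 higher, 2 lower). Sums of 4 endothelial markers were 61.8 to 73.3 and 56.9 to 62.5 CPM (2 higher, 1 lower, or 2 lower without control replicate 1 or any 1 of the ARD1 libraries). These near sums hide opposite changes. CDH5 fell from a mean of 33.1 to 0.0677 CPM, while PECAM1 rose from 32.7 to 57.7 CPM and VWF from 0.0299 to 1.4 CPM. Sums of 6 immune markers were 14.8 to 15.9 and 6.08 to 6.90 CPM (0 higher, 2 lower). Mitochondrially encoded genes took 7.59% to 7.81% of counts in controls and 5.62% to 6.28% with ARD1. The part of these differences in the results below was not tested. In bulk RNA, fewer cells of a kind and less RNA per cell cannot be told apart.

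Most of the feedback genes were lower in cells given the ARD1 plasmid. Of the 10 genes, 7 fell (DUSP4, DUSP6, SPRY1, SPRY2, SPRY4, SPRED1 and SPRED2), 1 rose (DUSP5), and DUSP1 and DUSP10 did not pass edgeR's quasi-likelihood test at an adjusted p under 0.05. All 10 passed the filter on low counts. Over all 15816 genes tested, 64.6% passed, 32.4% as higher and 32.2% as lower, so 8 of 10 passing is read against a background in which most genes differ. The median log2 fold change of the 10 genes was -0.34, and that of all tested genes 0.03. The 3 genes SPRY1, DUSP4 and SPRY4 fell by more than 1 on the log2 scale, as did 11.8% of all tested genes. SPRY4 was at -1.01, close to that limit, and its value was smaller in size than 1 under 6 of 17 alternatives, among them library totals (-0.74), without control replicate 1 (-0.96) and without ARD1 replicate 2 (-0.92). The libraries of the groups did not overlap in CPM for any of the 10 genes, which was true of 69.6% of all tested genes. Together the 10 transcripts summed to 756 ± 14.5 CPM in the controls and 515 ± 14.8 CPM in the ARD1 libraries (SD, n = 3). DUSP4, at 192 and 72.6 CPM, made up the largest part of that difference, and its size depends on the TMM scaling.

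These directions are relative to TMM scaling, which brings the bulk of genes in the libraries to a common level. When libraries were scaled by their totals only, the median over all tested genes was 0.30, and 68.6% of the genes that passed were higher, against 50.2% with TMM. On that scale 4 of the 10 genes still fell (DUSP4, SPRY1, SPRY2 and SPRY4), 2 rose (DUSP5 and DUSP1), and 7 had groups that did not overlap. Over all tested genes the shares on that scale were 22% lower, 48.1% higher and 74.4% without overlap.

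**Figure D1:**
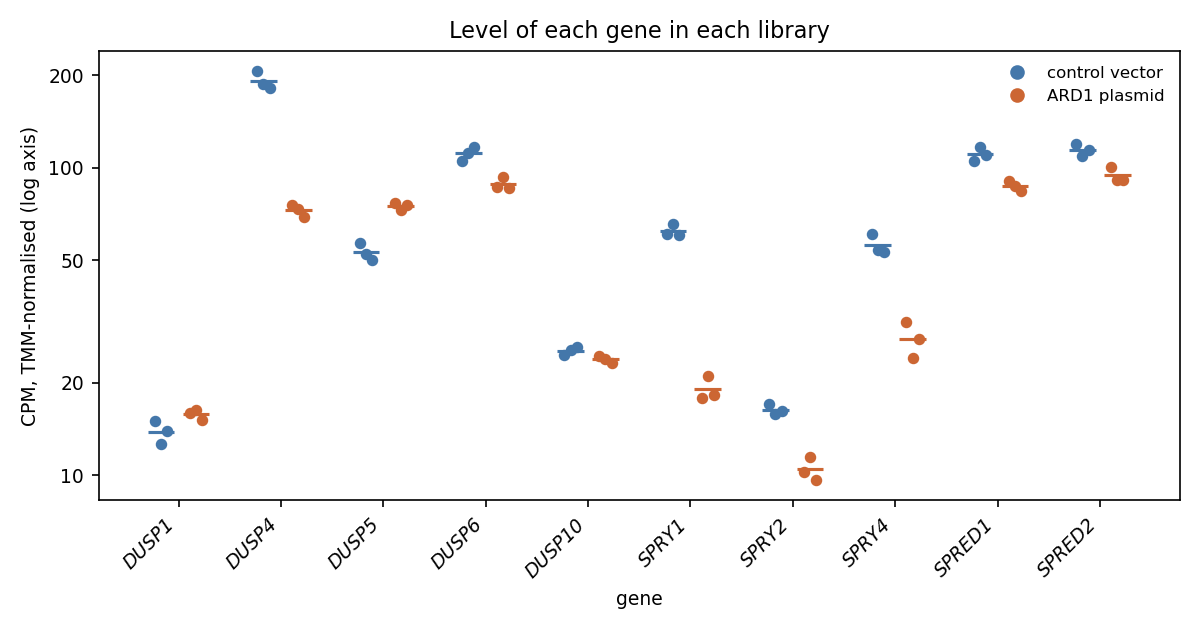
TMM-normalised CPM (log axis) of each of the 10 genes in the 3 control (blue) and 3 ARD1 (orange) libraries, with lines at the group means. DUSP4, SPRY1 and SPRY4 show the widest gaps downward, and DUSP5 lies higher in all 3 ARD1 libraries.

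Of the phosphatases DUSP4, DUSP5 and DUSP6, DUSP4 fell strongly, DUSP6 fell slightly and DUSP5 rose. DUSP4 (ENSG00000120875, chromosome 8, 29333064 to 29350668 on the minus strand, GRCh38 and GENCODE 29), a nuclear phosphatase of ERK, p38 and JNK, was measured at 206, 187 and 182 CPM in the control libraries and at 75.7, 73.3 and 69.0 CPM in the ARD1 libraries. Every ARD1 library was thus well under the lowest control. The log2 fold change was -1.40 (SE 0.0751, adjusted p = 6.92e-10, edgeR), which left 37.9% of the control level. It was also called lower under all 17 alternative fits, with values of -1.47 to -1.14.

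DUSP6 (ENSG00000139318, chromosome 12, 89347232 to 89353271, minus strand), the cytoplasmic phosphatase specific for ERK, was at 105, 112 and 117 CPM in the controls and 86.5, 93.1 and 86.2 CPM with ARD1. The gap between the groups was small but no library crossed it. Its log2 fold change was -0.33 (SE 0.0727, adjusted p = 0.00110). Scaled by library totals the value was -0.06 and missed the threshold (adjusted p = 0.454, over all alternatives 5.83e-08 to 0.454). Exon bases of an antisense gene lie opposite 40.5% of DUSP6 exon bases. That gene had 4 to 16 counts per library against 2067 to 2595 for DUSP6, although with the strand setting of the counting not given in the sources used here, reads of the 2 cannot be separated with certainty.

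DUSP5 (ENSG00000138166, chromosome 10, 110497838 to 110511544, plus strand), which dephosphorylates and holds ERK in the nucleus, went the other way. It was at 57.1, 52.4 and 50.2 CPM in the controls and at 76.8, 72.8 and 75.9 CPM in the ARD1 libraries. All 3 ARD1 libraries were above the highest control, and the log2 fold change was 0.50 (SE 0.0762, adjusted p = 4.34e-05), or 1.41-fold. The rise passed under all 17 alternatives, at 0.42 to 0.76. DUSP5-DT, the divergent transcript named after this locus (chromosome 10, 110428840 to 110496204, minus strand), also rose. Its level was 1.18, 1.76 and 1.57 CPM in the controls and 4.35, 3.97 and 5.00 CPM with ARD1, a log2 fold change of 1.56 (SE 0.209, adjusted p = 1.21e-05). The spans of the 2 genes do not overlap in GENCODE 29.

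DUSP1 and DUSP10 act chiefly on the stress-activated kinases p38 and JNK, DUSP1 on ERK as well, and neither passed the test. DUSP1 (ENSG00000120129, chromosome 5, 172768090 to 172771195, minus strand), an immediate early gene, was at 15.0, 12.7 and 13.9 CPM in the controls and 15.9, 16.3 and 15.2 CPM with ARD1. The lowest ARD1 library lay just above the highest control. Its log2 fold change of 0.19 (SE 0.103) had an adjusted p of 0.119 in edgeR. It passed as higher when scaled by library totals (0.46, adjusted p = 0.00124), after removal of GC and length trends (0.39, adjusted p = 0.000682) and without control replicate 1 (0.24, adjusted p = 0.0365). Adjusted p over all its alternatives ran from 0.000682 to 0.448. DUSP10 (ENSG00000143507, chromosome 1, 221701424 to 221742176, minus strand) was at 24.6, 25.6 and 26.2 CPM in the controls and 24.4, 23.9 and 23.2 CPM with ARD1. Its groups were nearly contiguous, with a log2 fold change of -0.10 (SE 0.0859, adjusted p = 0.342) and an interval of 2 SE from -0.27 to 0.08. The sign turned with library totals, at 0.17 (adjusted p = 0.1, over all alternatives 0.1 to 0.602).

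All 3 Sprouty genes measured here as members fell, SPRY1 by the most. Sprouty proteins are cysteine-rich inhibitors that move to the membrane after growth factor stimulation and restrain signalling from receptors to RAS and RAF. SPRY1 (ENSG00000164056, chromosome 4, 123396795 to 123403760, plus strand) was at 61.1, 65.7 and 60.4 CPM in the controls and 17.9, 21.0 and 18.3 CPM in the ARD1 libraries. No ARD1 library came near a control, and 30.6% of the control level remained (log2 fold change -1.71, SE 0.0894, adjusted p = 5.31e-10). Every alternative gave the same call, at -1.79 to -1.45.

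SPRY4 (ENSG00000187678, chromosome 5, 142310427 to 142326455, minus strand) was at 60.9, 53.9 and 53.3 CPM in the controls and 31.5, 24.1 and 27.8 CPM with ARD1. The ARD1 libraries varied more for this gene than for the other Sprouty genes, with replicate 2 lowest, but all were well under the controls. Its log2 fold change was -1.01 (SE 0.101, adjusted p = 5.78e-07). The antisense transcript SPRY4-AS1 had 5 to 26 counts per control library and 15 to 20 per ARD1 library, and missed the threshold (-0.09, adjusted p = 0.87, over all alternatives 0.254 to 0.99).

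SPRY2 (ENSG00000136158, chromosome 13, 80335976 to 80340951, minus strand), the least abundant of the 3 per length in the controls, was at 17.1, 15.8 and 16.2 CPM there and at 10.3, 11.5 and 9.67 CPM with ARD1. The groups were separate, and the log2 fold change was -0.64 (SE 0.108, adjusted p = 0.000107). Both SPRY4 and SPRY2 were called lower under all 17 alternatives, at -1.11 to -0.74 and -0.72 to -0.38. The summed level of the 3 Sprouty genes was 135 ± 4.68 CPM in the controls and 57.4 ± 2.03 CPM with ARD1. SPRY3, the remaining family member, had 1.37 ± 0.372 and 1.93 ± 0.581 CPM and missed the threshold (0.48, adjusted p = 0.165, over all alternatives 0.0441 to 0.528), though it passed with library totals (0.74).

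Promoter sequences are shown for SPRY1, which fell most, SPRY2, which fell moderately, and DUSP1, which did not pass, so that their letters can be compared. They are the 250 bases before a RefSeq start (GRCh38.p14), 5′ to 3′ on the gene's strand, at chr4:123396545-123396794 (plus), chr13:80341127-80341376 (minus) and chr5:172771196-172771445 (minus). None of these bases lies in a GENCODE 29 exon. Capitals mark TGACG on either strand, the short form of the cAMP response element, and the full element TGACGTCA, which contains TGACG on each strand.
SPRY1: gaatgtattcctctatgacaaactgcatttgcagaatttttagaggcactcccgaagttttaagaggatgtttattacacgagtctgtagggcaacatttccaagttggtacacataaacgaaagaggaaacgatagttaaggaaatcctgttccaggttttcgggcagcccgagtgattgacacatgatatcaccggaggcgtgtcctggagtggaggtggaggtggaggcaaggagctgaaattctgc
SPRY2: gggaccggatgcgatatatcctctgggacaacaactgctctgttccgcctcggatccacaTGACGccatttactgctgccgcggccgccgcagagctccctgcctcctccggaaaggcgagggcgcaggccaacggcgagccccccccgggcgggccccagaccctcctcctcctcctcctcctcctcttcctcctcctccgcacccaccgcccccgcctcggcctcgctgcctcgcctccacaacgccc
DUSP1: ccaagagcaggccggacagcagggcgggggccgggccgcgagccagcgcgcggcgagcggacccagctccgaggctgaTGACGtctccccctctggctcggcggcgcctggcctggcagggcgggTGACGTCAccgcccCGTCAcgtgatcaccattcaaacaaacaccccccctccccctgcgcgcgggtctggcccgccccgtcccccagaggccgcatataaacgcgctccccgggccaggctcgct

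In the DUSP1 window the full element spans 125 to 118 bases before the start, with further short sites at 172 to 168 and at 111 to 107 bases. The SPRY2 window shown holds 1 short site, 190 to 186 bases before the start, and the SPRY1 window shown holds none. Both genes have other RefSeq starts, whose windows hold no TGACG. The ETS site counted below lies in the SPRY1 window that is not shown, so the letters depend on the start chosen. RefSeq windows from 250 bases before to 50 after a start were searched for 8 of the members, 13 windows in all because some genes have several starts. TGACG was in 5 of the 13, against 24.6% of 35116 windows of all genes. TGACGTCA was in 1 (1.85% of all), the AP-1 site TGANTCA in 1 (7.71%), the ETS site CCGGAAG in 1 (10.3%) and the GC box GGGCGG in 9 (45%), each on both strands, where TGACGTCA also counts as TGACG. The serum response element was in 0 of 13 and in 1.29% of all windows. A match is a run of letters and not a measured binding site.

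The SPRED genes fell slightly. SPRED1 and SPRED2 encode membrane proteins that carry neurofibromin, the RAS inactivator, to RAS. SPRED1 (ENSG00000166068, chromosome 15, 38252326 to 38357249, plus strand) was at 105, 117 and 110.3 CPM in the controls and 90.9, 87.1 and 84.0 CPM with ARD1 (log2 fold change -0.34, SE 0.0723, adjusted p = 0.000725). All ARD1 libraries were below all controls. Its size depended on the setting, at -0.62 with GC and length trends removed and -0.08 with library totals, which missed the threshold (adjusted p = 0.343, over all alternatives 4.55e-09 to 0.343).

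SPRED2 (ENSG00000198369, chromosome 2, 65310851 to 65432637, minus strand) was at 119.6, 109 and 114 CPM in the controls and at 100.5, 91.3 and 91.4 CPM with ARD1. The lowest control lay above the highest ARD1 library, and the log2 fold change was -0.28 (SE 0.0730, adjusted p = 0.00410). With library totals it was -0.01 and missed the threshold (adjusted p = 0.906, over all alternatives 8.97e-05 to 0.906). SPRED3 had 16.0 ± 1.51 and 15.1 ± 0.331 CPM and missed the threshold (-0.08, adjusted p = 0.494, over all alternatives 0.0762 to 0.905).

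**Figure D2:**
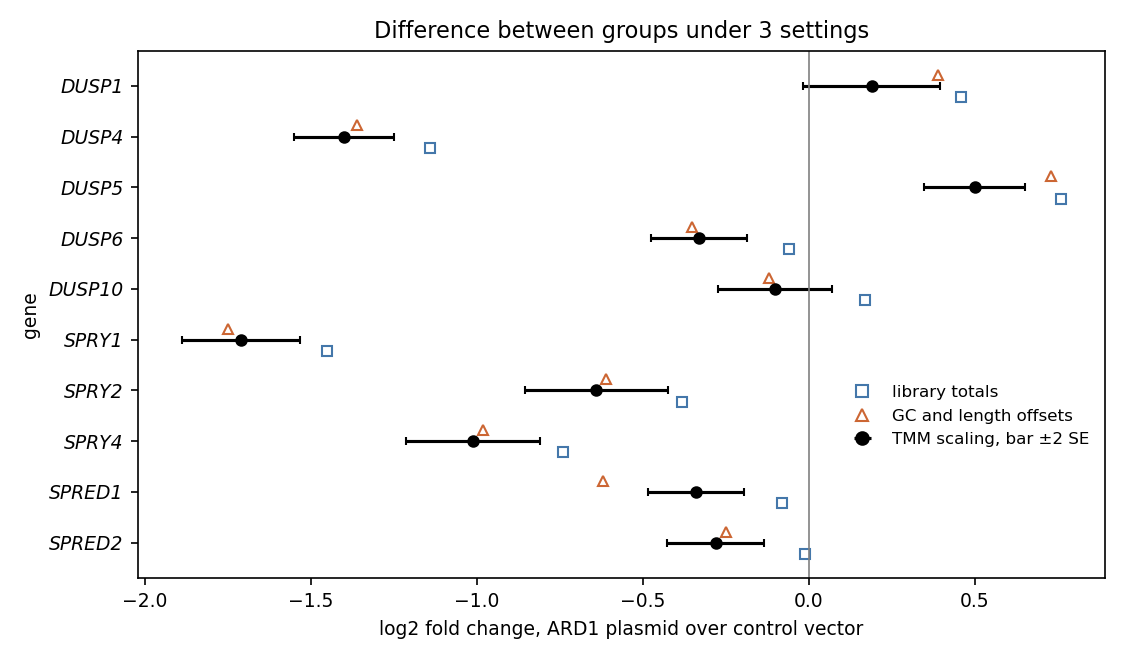
Log2 fold change of each gene, ARD1 plasmid over control vector, with TMM scaling (black, bars of 2 SE), library totals alone (blue squares) and GC and length trends removed (orange triangles). DUSP4, SPRY1, SPRY2 and SPRY4 lie below 0 and DUSP5 above 0 under all 3 settings, while DUSP6, SPRED1 and SPRED2 reach -0.06, -0.08 and -0.01 with library totals.

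The order of the genes changed between the groups when levels were expressed per kilobase of exon, to allow for differences in length between genes. The length used is that of all annotated exons of a gene together. Lengths of the transcripts present were not measured, so the order is approximate. In the controls DUSP4 (26.4 ± 1.75 CPM per kilobase), DUSP6 (24.0 ± 1.29), SPRED2 (22.2 ± 1.04) and DUSP5 (20.4 ± 1.36) came first, and each neighbouring pair among them overlapped in range. SPRY1 (15.7 ± 0.722) and SPRED1 (13.4 ± 0.724) followed as separate steps. DUSP10 (8.74 ± 0.278) and SPRY4 (8.53 ± 0.641) overlapped, and DUSP1 (6.87 ± 0.552) and SPRY2 (5.39 ± 0.231) were lowest.

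In the ARD1 libraries DUSP5 stood alone at the top with 28.7 ± 0.803 CPM per kilobase. DUSP6 (19.1 ± 0.845) and SPRED2 (18.3 ± 1.03) overlapped below it, and DUSP4 had moved to the fifth place with 9.5 to 10.4, overlapping with SPRED1 (10.2 to 11). DUSP10 (8.18 ± 0.192) overlapped with DUSP1 (7.84 ± 0.273), which came above all 3 Sprouty genes. By CPM without length DUSP5 (75.2) was not at the top in these libraries, but below SPRED2 (94.4), DUSP6 (88.6) and SPRED1 (87.3). DUSP1 (15.8) came above SPRY2 (10.5) but below SPRY1 (19.1) and SPRY4 (27.8) on that measure. SPRY1 (4.81 ± 0.434), SPRY4 (4.24 ± 0.564) and SPRY2 (3.45 ± 0.317) closed the order, each overlapping with its neighbour. Of the summed per-kilobase level of the 5 DUSP genes, DUSP4 made up 30.6% ± 1.33 in the controls and 13.5% ± 0.444 with ARD1, and DUSP5 23.5% ± 1.07 and 38.9% ± 1.30 (SD, n = 3).

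Ratios of counts within a library do not depend on how libraries are scaled, although trends with GC content and length remain in them. The 7 pairs, chosen after the values were seen, describe how unequally the genes moved. How often the groups are apart over all pairs of genes was not computed. There were 0.277, 0.280 and 0.275 DUSP5 counts per DUSP4 count in the controls and 1.01, 0.993 and 1.10 in the ARD1 libraries. The control values were nearly identical, and the log2 ratio was 1.90 higher with ARD1. DUSP5 per DUSP6 count was 0.430 to 0.546 in controls and 0.781 to 0.887 with ARD1, so the ERK-specific nuclear and cytoplasmic phosphatases changed unequally. SPRY1 per SPRY2 count was 3.56 to 4.16 and 1.74 to 1.89, a log2 difference of -1.07, and SPRY4 per SPRY2 count 3.29 to 3.55 and 2.09 to 3.07 (-0.37). DUSP1 per DUSP10 count was 0.498 to 0.608 and 0.655 to 0.683 (0.29). SPRED1 per SPRED2 count overlapped between the groups, at 0.878 to 1.07 and 0.905 to 0.954 (-0.07). With GC and length trends removed the log2 fold changes of these 2 genes were less alike, at -0.62 for SPRED1 and -0.25 for SPRED2. Those of DUSP1 and DUSP10 were then 0.39 and -0.12.

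**Figure D3:**
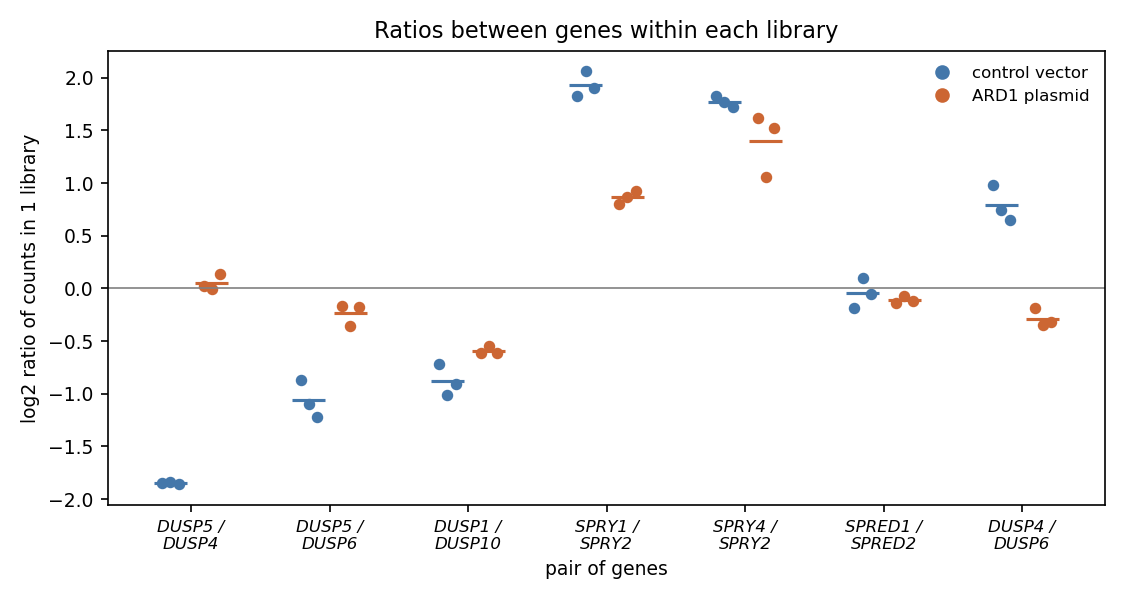
Log2 ratio of the counts of 2 genes within each library, for 7 pairs, in control (blue) and ARD1 (orange) libraries, with lines at group means. The groups are apart for all pairs but SPRED1 over SPRED2, and widest for DUSP5 over DUSP4. The pairs were chosen after the values were seen. The share of all gene pairs with groups apart was not computed, and for single tested genes it was 69.6%.

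The other MAP kinase phosphatases went in both directions. Of 5 tested, 1 rose, 2 fell and 2 did not pass. DUSP9, a cytoplasmic phosphatase related to DUSP6, fell from 9.87 ± 1.28 to 0.953 ± 0.13 CPM (-3.36, SE 0.188, adjusted p = 1.09e-09), a larger value than that of any of the 10 members. DUSP16, which acts on JNK and p38, rose slightly (0.25, adjusted p = 0.00623). DUSP7, another relative of DUSP6, fell by 0.25 with TMM scaling, but its value was 0.02 with library totals and 0.09 with GC and length trends removed, neither past the threshold. DUSP8 (0.34) and DUSP2 (0.06) did not pass, but both passed as higher with GC and length trends removed (0.77 and 0.55). DUSP8 also passed with library totals (0.61, adjusted p = 0.00375) and without control replicate 1 (0.43, adjusted p = 0.0224), over all its alternatives 0.000144 to 0.318. Of 8 other dual-specificity phosphatases that are not typical MAP kinase phosphatases, 6 rose and 1 fell, with a median of 0.53. DUSP14 (1.52), DUSP18 (0.97) and DUSP11 (0.63) rose, and DUSP3, which can act on ERK and JNK, fell (-0.35, but -0.08 and past no threshold with library totals).

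Other negative regulators between receptor and ERK went in both directions. Of 15 tested, 6 rose, 2 fell and 7 did not pass, with a median of 0.20. PEBP1, which blocks RAF from activating MEK, fell from 567 ± 49.8 to 262 ± 5.19 CPM (-1.12, SE 0.0744). CBL, a ubiquitin ligase for activated receptors that Sprouty proteins bind, rose from 72.5 ± 5.63 to 120.2 ± 3.30 CPM (0.73, SE 0.0758), and ERRFI1, an inhibitor of the EGF receptor, from 447 ± 10.4 to 647 ± 9.15 CPM (0.53). RASA2, a RAS GTPase-activating protein, rose too (0.88). NF1, which encodes neurofibromin, the partner of SPRED proteins, was at 123 ± 8.68 and 135 ± 3.25 CPM and missed the threshold (0.14, adjusted p = 0.0963, over all alternatives 0.000305 to 0.41). It passed with library totals (0.41) and its sign turned after removal of GC and length trends (-0.12).

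In the core of the cascade 11 of 20 genes rose, 5 fell and 4 did not pass, with a median of 0.24. SOS1, the exchange factor that loads RAS with GTP, rose from 79.8 ± 7.91 to 184 ± 3.96 CPM (1.21, SE 0.0796). MAPK3, which encodes the kinase ERK1, fell from 57.4 ± 6.02 to 29.8 ± 1.13 CPM (-0.94). SHOC2, a scaffold for RAF activation, rose (0.83) and SHC1, an adaptor between receptors and RAS, fell (-0.65).

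Other transcripts used as readouts of ERK output were split as well. Of 17 tested, 7 rose, 6 fell and 4 did not pass, with a median of 0.03. EGR1, an immediate early transcription factor, rose from 18.4 ± 2.10 to 194 ± 9.32 CPM (3.40, SE 0.0922), and PLAUR, the urokinase receptor, from 15.3 ± 1.41 to 63.6 ± 3.51 CPM (2.06). ETV4, an ETS transcription factor induced by ERK, fell from 134 ± 16.9 to 36.2 ± 0.875 CPM (-1.89, SE 0.0905) and IER3, an early response gene, from 52.9 ± 1.83 to 24.6 ± 2.53 CPM (-1.10). Among genes named after their values were seen, FOSL1 rose (1.01), CCND1, PHLDA1 and EPHA2 fell (-0.57, -0.63 and -0.59), and FOS (0.03), MYC (175 CPM in both groups) and ETV5 (-0.06) did not pass, although with library totals they passed as higher (0.29, 0.26 and 0.21). EGR3 was too low to be tested. DUSP4, SPRY4 and ETV4 thus fell in the same libraries in which EGR1 and PLAUR rose.

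**Figure D4:**
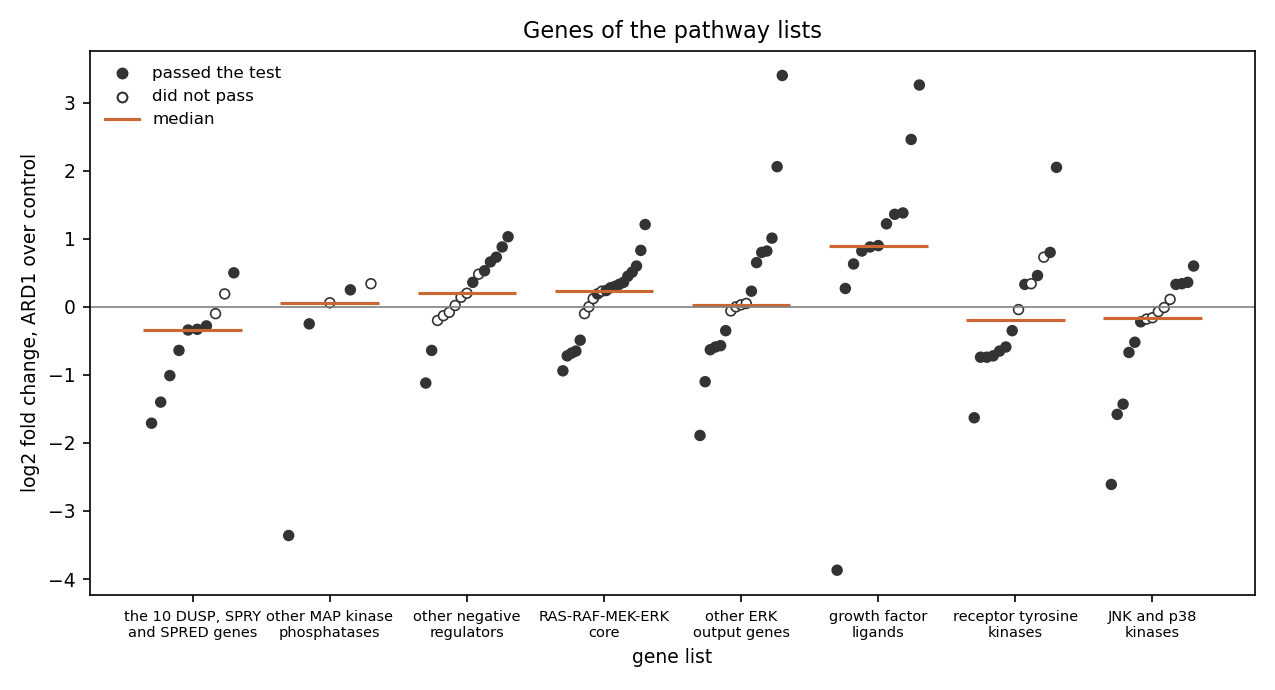
Log2 fold change (ARD1 over control) of each tested gene in the 10 feedback genes and 7 related lists, with filled points for genes that passed the test, open points for those that did not, and lines at list medians. The median is -0.34 for the 10 genes and 0.90 for growth factor ligands, with HGF far below its list.

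Ligands of the receptors upstream were mostly higher. Of 11 growth factor genes tested, 10 rose and 1 fell, with a median of 0.90. The EGF receptor ligands EREG (9.82 ± 0.215 to 54.0 ± 2.62 CPM, 2.46), AREG (2.33 ± 0.327 to 22.3 ± 2.48 CPM, 3.26) and EGF (15.9 ± 0.923 to 37.1 ± 2.43 CPM, 1.22) rose. HGF, the ligand of MET, fell from 38.4 ± 3.98 to 2.63 ± 0.410 CPM (-3.87, SE 0.134).

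Of 14 receptor tyrosine kinase genes tested, 4 rose, 7 fell and 3 did not pass, with a median of -0.19. ERBB3 fell from 174 ± 7.32 to 56.4 ± 0.751 CPM (-1.63), FGFR4 (-0.74) and FGFR3 (-0.72) fell, and KDR, a VEGF receptor, rose (2.05). EGFR and MET, named after their values were seen, rose slightly (0.46 and 0.33), and MET was the most abundant of the list at 8879 ± 557 and 11199 ± 161 CPM.

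The p38 and JNK pathways, whose MAP kinases are substrates of DUSP1 and DUSP10, were measured through 15 genes for these kinases and for kinases above and below them. Of the 15, 4 rose, 6 fell and 5 did not pass, with a median of -0.16. The number that fell depended on the setting. It was 8 without control replicate 1 and 9 with GC and length trends removed, while with library totals 6 rose and 4 fell. The p38 genes MAPK12 (56.5 ± 3.89 to 21.0 ± 1.43 CPM, -1.43) and MAPK11 (25.9 ± 0.567 to 8.63 ± 1.19 CPM, -1.58) fell, as did the JNK gene MAPK10 (9.81 ± 1.11 to 1.61 ± 0.287 CPM, -2.61) and the JNK activator MAP2K7 (-0.67). Other genes of these kinases, named with values in view, went otherwise. The JNK gene MAPK8 rose (19.4 ± 1.55 to 29.4 ± 1.13 CPM, 0.60). MAPK9, also a JNK gene, did not pass (77.4 and 76.8 CPM, -0.01) but passed as higher with library totals (0.25). The p38 gene MAPK14 (87.7 and 75.2 CPM) fell by 0.22 with TMM scaling, but was at 0.04 with library totals and missed the threshold. Of 8 genes for binding partners and turnover factors of Sprouty and SPRED proteins, CBL included, 5 rose and 1 fell, with a median of 0.25. TESK1, a kinase bound by Sprouty proteins, rose (0.91), as did MKNK1 (0.97), a kinase that phosphorylates SPRY2, and caveolin CAV1 (0.31). SIAH2, a ubiquitin ligase for Sprouty proteins, fell by 0.31 with TMM scaling, but was at -0.04 with library totals and -0.05 after removal of GC and length trends, neither past the threshold.

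The genes whose profile over the 6 libraries was nearest to that of the 2 members with the smallest p were found by Euclidean distance in centred log2 CPM. Nearest to SPRY1 were LPXN (distance 0.148), C4BPA (0.171) and EBF4 (0.171), which fell by 1.70, 1.68 and 1.74 on the log2 scale. LPXN was at 30.7 ± 0.218 and 9.42 ± 0.498 CPM in the control and ARD1 groups. Nearest to DUSP4 were PTMA (0.0612), TNFAIP2 (0.0698) and ABCA7 (0.0788), which fell by 1.43, 1.40 and 1.42. PTMA has many processed copies in the genome, and its count is uncertain to that extent.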

How the data were processed

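RNA-seq counts of 6 libraries were analysed, 3 per group, with groups and replicate numbers taken from the sample titles. Libraries were strand-specific and depleted of ribosomal RNA, per the labels' protocols. The submitters' processing notes name cutadapt 4.6, STAR 2.7.11b and GRCh38, and the sources used here give no counter, strand setting or annotation release. The values the authors deposited are raw whole-number counts per Ensembl gene, with no normalization and at least 2 counts over the 6 libraries for each gene listed. Symbols were matched for 25052 of the 25071 genes, and 23129 were found in GENCODE 29 (GRCh38), which gave coordinates, exon lengths and GC content.

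The fit was made on the whole table: edgeR 4.0.16 (R 4.3.3) with filterByExpr (15816 genes kept), TMM, and glmQLFit and glmQLFTest over both groups, with Benjamini-Hochberg adjustment over all tested genes and a threshold of 0.05. Standard errors come from the F statistic. CPM are TMM-normalised and 3 counts correspond to 0.112 to 0.143 CPM. Counts are not independent molecules, so this covers counting error only. CPM per kilobase divides by the union of exons. The edgeR step was tested on simulated data with known changes in a small part of the genes. That test does not bear on the choice of scaling where, as here, most genes differ.

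The members and gene lists were chosen with earlier results of these data known. All 10 members are named, and from each list up to 4 changed genes with the smallest p, and any further gene was picked with its values in view, among them SPRY3, SPRED3, NF1, DUSP2 and DUSP8. Alternatives were RLE and upper-quartile scaling, library totals alone, DESeq2 1.42.0, limma-voom (limma 3.58.1), no filter, a filter of 1 CPM in 3 libraries, a replicate block, each library left out, offsets from loess trends on GC content and length (known for 96.3% of tested genes) with and without the block, scaling without NAA10 and the 20 most abundant genes, an adjusted p under 0.01, and a minimum log2 fold change of 1 in size. The planned pseudocount was for normalized values and was not needed. Promoter sequences are from RefSeq (GRCh38.p14). 1 gene of the cascade is not reported here by name.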

Additional observations from a re-analysis of the deposited data

How the results depend on the processing

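DUSP4, SPRY1, SPRY2 and SPRY4 as lower and DUSP5 as higher kept their call under all 17 alternative fits. With library totals alone 2 members were higher and 4 lower, in place of 1 and 7, and DUSP10 turned to 0.17. With GC and length offsets 2 were higher, with or without the replicate block, since DUSP1 passed. Leaving out each library in turn gave 1 to 2 members higher, 2 without control replicate 1, and 7 lower each time. A minimum absolute log2 fold change of 1 left 3406 of the 10223 genes called, and 0 members higher and 3 lower. Of 306 counts over the lists under alternatives, 290 stayed within 1.5 times the main count. With library totals, counts moved to 2 higher and 1 lower for the other MAP kinase phosphatases (main 1 and 2), 10 higher for the other negative regulators (main 6), 11 higher for the other ERK output genes (main 7), and 0 lower for the other dual-specificity phosphatases and for the partners (main 1 each). With GC and length offsets, with or without the block, the other phosphatases had 3 higher and 1 lower and the partners 0 lower. The other phosphatases also had 2 higher with upper-quartile scaling and without control replicate 1, and 1 lower without ARD1 replicate 1 or 3. Within 1.5 times, leaving out control replicate 1 gave 12 higher and 6 lower for the cascade core (main 11 and 5), 8 lower for the p38 and JNK kinases (main 6), 7 higher for the other negative regulators and 5 higher for the other dual-specificity phosphatases (main 6 each). The cause was not tested.

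Whether libraries with the same replicate number share more than a label is not stated. Deviations of same-numbered libraries from their group means correlated at 0.017, -0.036 and 0.034. Differently numbered libraries of the 2 groups were at -0.069 to 0.050, and with 3 libraries per group these values cannot decide it. With the replicate block 10293 genes were called, 1 member higher and 7 lower. By CPM without length, 2 members kept their place in the order in the controls and 4 in the ARD1 libraries. At this depth every member had at least 240 counts in each library, and with library totals DUSP6, SPRED1 and SPRED2 did not pass.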
